A study of Mus musculus with 8 samples.

Results

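The genes described here are 10 regulators of apoptosis, the BCL2 family genes *Bcl2*, *Mcl1*, *Bcl2l1*, *Bcl2l11*, *Bbc3*, *Bax* and *Bmf* and the IAP (inhibitor of apoptosis protein) genes *Xiap*, *Birc2* and *Birc3*. They were listed by name, out of 21866 protein-coding genes, and not by a threshold on a measured value. An m6A peak was listed on 9 of the 10 in at least 1 mouse, where 6971 of all protein-coding genes (31.9%) had one. *Bax* was the gene without a peak. The genes were chosen with earlier results of these data known, so these shares do not test an enrichment. All protein-coding genes also include short ones, of which fewer had a peak.

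RNA of bone marrow-derived macrophages (BMDMs) from 4 C57BL/6 mice aged 8 weeks was analysed by MeRIP-Seq, in which fragments pulled down with an antibody against m6A are sequenced beside the input RNA and stretches enriched in the pull-down are called as peaks. The marrow cells were grown for 7 days with M-CSF at 40 ng/mL. The comparison was between genotypes, with 2 mice each. WT mice were *Mettl3* fl/fl Lyz2+/+ and KO mice *Mettl3* fl/fl Lyz2cre/+, so that the controls also carried the floxed *Mettl3* alleles but no Cre. METTL3 is the catalytic subunit of the enzyme that writes m6A on mRNA, and Lyz2-Cre acts in macrophages and other myeloid cells and need not delete in every cell. The comparison asks where the m6A map of these genes differs between BMDMs with and without METTL3. The authors deposited 1 peak list for each mouse, and each list is named by its genotype and the number of its mouse, as in WT-1 or KO-2.

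m6A is the most common internal mark of mRNA, often found in long exons and near stop codons, and proteins that read it act on the decay, splicing and translation of a transcript. In the mitochondrial pathway of apoptosis, the pro-survival proteins BCL2, MCL1 and BCL-XL hold the effectors BAX and BAK in check. The BH3-only proteins BIM, PUMA and BMF free or activate these effectors, after which cytochrome c leaves the mitochondria and caspases are activated. IAP proteins act further down. XIAP binds and inhibits caspases, whereas cIAP1 and cIAP2, the products of *Birc2* and *Birc3*, are ubiquitin ligases that keep the signal of TNF receptors on the survival side.

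The lists held between 6159 and 6684 peaks, and 94.8% to 96.2% of these lay on exons of protein-coding genes of the same strand. They hold no read counts, so the depth is unknown, the absence of a peak is not a level of 0, and presence and position were compared in place of levels. The score of a peak is that of the authors' peak caller and was used to rank peaks within a list. It is close to a ceiling at 3100, since 10.3% (WT-1) to 19.5% (KO-2) of the peaks of a list scored 3100 or more and 99.1% to 99.7% scored 3100 or less, and peaks at 3100 are tied and not ranked among each other. *Mettl3* had no peak in any list and gives no check of the genotypes. Regions shared over regions in either list came to 0.356 for WT-1 and WT-2, 0.466 for KO-1 and KO-2 and between 0.359 and 0.383 for a WT and a KO list, so the WT lists were no more alike than a WT and a KO list. Of the macrophage markers, *Mertk* had a peak in all 4 lists, *Fcgr1* in WT-1 and WT-2 and *Cd14* in WT-2. A peak list is a poor check of identity, since *Csf1r*, *Adgre1*, *Itgam*, *Cd68*, *Lyz2* and *Spi1* had none. Of the markers of other cells, 0 of 6 for neutrophils, 0 of 5 for dendritic cells and 1 of 6 for lymphocytes had a peak, the last being *Cd4* with 1 peak in each WT list, and their part in the results was not tested.

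The 9 genes carried 49 peaks over the 4 lists. *Bcl2l1*, *Bcl2l11*, *Xiap*, *Birc2* and *Birc3* had a peak in all 4 lists, which is 55.6% of the 9 genes beside 30.5% of all genes with a peak. *Bcl2*, *Mcl1* and *Bbc3* had one in 3 lists, and *Bmf* in 2. The list that lacked a peak was KO-1 for *Bcl2*, WT-1 for *Mcl1* and WT-2 for *Bbc3*, so it was another mouse each time. Merging peaks that overlapped on the same strand gave 22 regions, 8 of them present in 1 list, 6 in 2, 3 in 3 and 5 in 4 lists. The shares for regions of all genes were 49.4%, 20% and 12.7% for 1, 2 and 3 lists and 17.8% for 4 lists, against 36.4%, 27.3%, 13.6% and 22.7% here. Presence in all 4 lists was thus not far from the background at the level of regions.

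The IAP genes, *Bcl2l1* and *Mcl1* had peaks at the 5′ end of the coding sequence, and the BH3-only genes around and after the stop codon. The split was not clean, since *Mcl1* (WT-2 and KO-2), *Xiap* (WT-2) and *Birc2* (WT-1) also had a peak over the stop codon. For *Birc3* the peak at the 5′ end was in the WT lists alone. The start codon was held by 5 of the 22 regions (22.7%), beside 9.32% of 11649 regions on all genes. Among regions present in all 4 lists the start codon was in 3 of 5 (60%), beside 15.3% of 2160. The stop codon was in 5 of 22 regions, beside 33.4% of regions on all genes. These shares are descriptions with no test. Of the 20 regions on an exon of the longest coding transcript, 18 (90%) were on exons of more than 400 bases, beside 87.2% for all genes, and the median exon had 1970 bases.

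**Figure D1:**
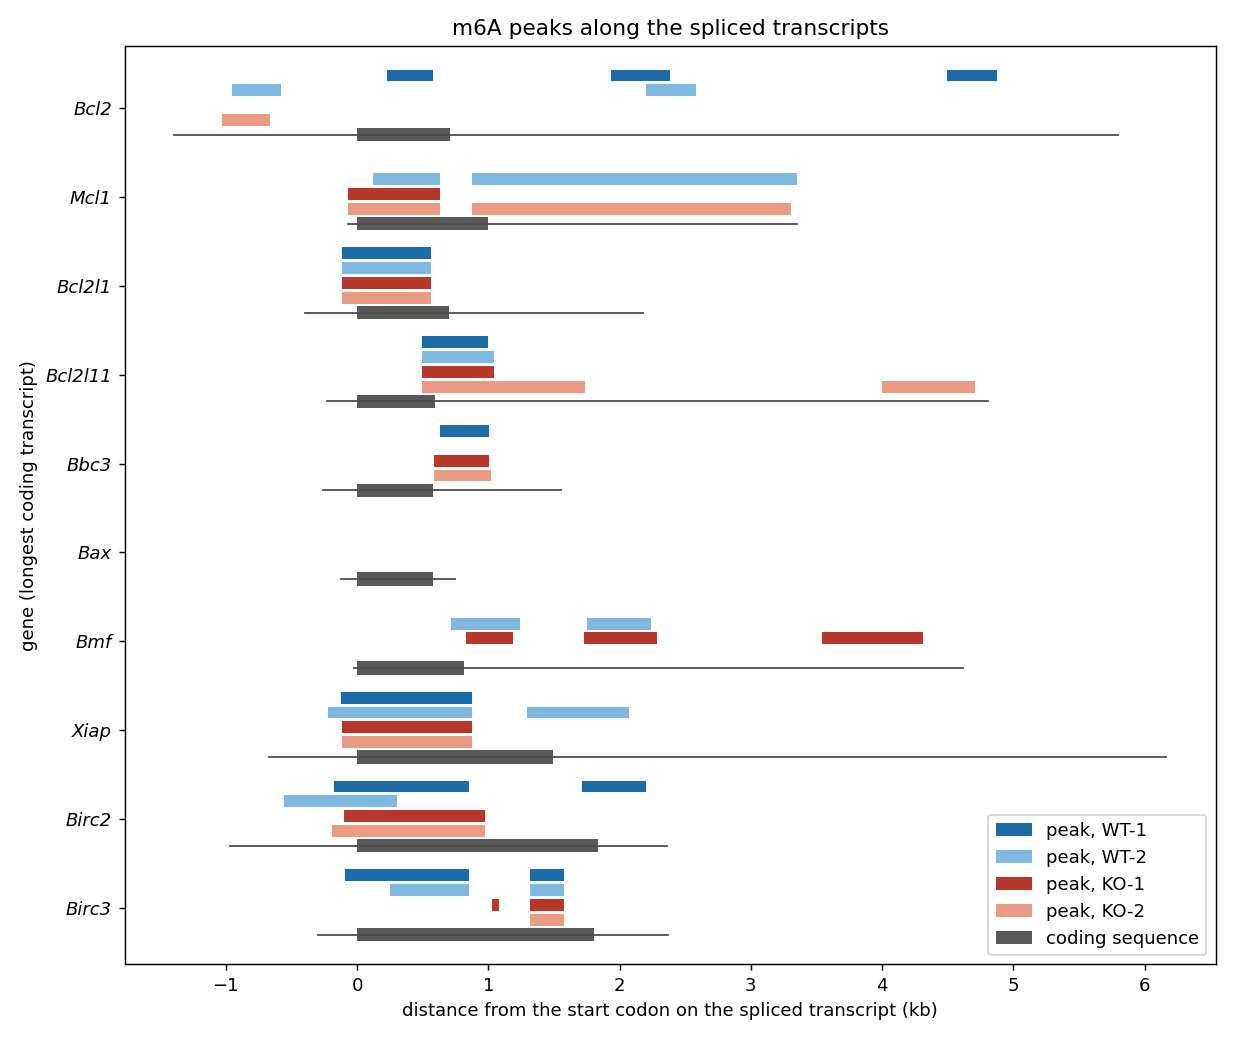
Peaks of each list (coloured bars) along the longest coding transcript of each gene (line, with the coding sequence as a grey box), in kb from the start codon. Peaks in all 4 lists cover the start codon of *Bcl2l1*, *Xiap* and *Birc2* and the stop codon of *Bcl2l11*, *Bax* has none, and the parts of peaks outside this transcript are not drawn.

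The core of the site at which METTL3 writes m6A is GGAC, in which the A is the methylated base. GGAC was searched on the transcript strand. The following stretches of 30 bases, read from GRCm38, hold GGAC and the base after it in capitals where that base is A, C or T, and lie in the bases common to the peaks of all 4 lists. They show GGAC matches that were covered in every mouse of either genotype, and not every candidate m6A site. The motif is a match of letters and not a measured site.
*Bcl2l1*, 5′-UTR, chr2:152830003-152830032, minus strand: gttttggacaatGGACTggttgagcccatc
*Bcl2l1*, coding sequence, chr2:152829873-152829902, minus strand: tcgaagagaataGGACTgaggccccagaag
*Bcl2l1*, coding sequence, chr2:152829624-152829653, minus strand: acataaccccagGGACCgcgtatcagagct
*Bcl2l11*, 3′-UTR, chr2:128158348-128158377, plus strand: aggatacgtggcGGACAtggctcttgttca
*Bcl2l11*, 3′-UTR, chr2:128158455-128158484, plus strand: tgtgctgagcatGGACAgcgctctgcactg
*Xiap*, 5′-UTR, chrX:42094362-42094391, plus strand: tctagaaaaggtGGACAagtcctattttcc
*Xiap*, coding sequence, chrX:42094816-42094845, plus strand: ctcttgagaactGGACAggttgtagatatt
*Xiap*, coding sequence, chrX:42094908-42094937, plus strand: tcagaactggccGGACTatgctcatttaac
*Xiap*, coding sequence, chrX:42095207-42095236, plus strand: cttttggaacatGGACAtcctcagttaaca
*Birc2*, coding sequence, chr9:7834459-7834488, minus strand: attactactcatGGACAaaactgtctccca
*Birc2*, coding sequence, chr9:7834370-7834399, minus strand: tcttgtcaaattGGACAaaggagagcgaag
*Birc2*, coding sequence, chr9:7834174-7834203, minus strand: ctggaaacaaggGGACAgtcctgttgaaaa

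In all, the regions present in the 4 lists held 13 such sites, 9 with A, 3 with T and 1 with C after GGAC. The site not printed is the one that begins 7 bases before the first *Bcl2l1* site and is written there in lower case. The region of *Birc3* present in 4 lists held no GGAC in its common bases, but 11 matches of the wider motif of 5 bases given further below.

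*Bcl2l1*, which encodes BCL-XL, had a peak with the same 5′ edge in all 4 lists. The gene lies at chr2:152780668-152831728 on the minus strand, and its longest coding transcript has 3 exons. A peak of 795 bp (WT-1), 752 bp (WT-2), 759 bp (KO-1) or 831 bp (KO-2) began at the same base, the 5′ edge of exon 2, and covered the start codon. The score was at the ceiling of 3100 in all lists but WT-2, in tie with the upper 10.3% (WT-1), 16.2% (KO-1) and 19.5% (KO-2) of the list. In WT-2 it was 539.58, with 42% of the list at or below. The WT-2 peak was thus in the same place but ranked lower. In each list the peak ran on past the end of exon 2, by 76 to 155 bases. Those bases are intron in the longest coding transcript and belong to the last exon of 2 other coding transcripts, which end in a longer form of exon 2 (1976 and 1741 bases in place of 676). WT-1 had a second peak of 364 bp wholly in that last exon, with a score of 176.13 (18.5% of the list at or below).

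*Mcl1*, whose short-lived product is needed for the survival of many blood cells, lies at chr3:95658788-95663176 on the plus strand and has 3 exons. WT-2 and KO-2 had 2 peaks each, KO-1 had 1 and WT-1 had 0. The peak on exon 1 was present in WT-2 (score 3100, 512 bp), KO-1 (915.03, 767 bp) and KO-2 (2385.91, 767 bp), and it reached over the start codon in the KO lists but not in WT-2. The peak on exon 3 was 2472 bp wide in WT-2 and 2431 bp in KO-2, and so covered nearly the whole last exon of 2470 bases, stop codon and 3′-UTR included. Its score was 3100 in WT-2 and 462.40 in KO-2. Peaks covered 92.7% of the *Mcl1* transcript in at least 1 list, the highest share of the 10 genes, beside a median of 38.6% over the 9 genes with a peak. The mice with the broad peak were replicate 2 of each genotype, and those without it replicate 1.

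*Bcl2*, the founding pro-survival gene of the family, lies at chr1:106538178-106714274 on the minus strand. The WT lists held 3 (WT-1) and 2 (WT-2) peaks on it, the KO lists 0 (KO-1) and 1 (KO-2). The genotypes did not overlap in this number, whose mean was 2.5 ± 0.707 (SD, n = 2) for WT and 0.5 ± 0.707 (SD, n = 2) for KO BMDMs. By the two-sided exact permutation test p was 0.33, which 2 mice against 2 cannot go below. Among the upper 50% of peaks by score the difference of KO less WT was -0.5 in place of -2, and the genotypes overlapped (two-sided exact permutation test, p = 1). In this, *Bcl2* was 1 of 9 genes, beside 5.55% of all genes with a peak, and 0 of 9 had more peaks in each KO list than in each WT list, beside 7.99%. The region at chr1:106541391-106542038 in the 3′-UTR had a peak in each WT list and in no KO list, called WT-only below. Its WT-1 peak scored 443.61 (45.4% of the list at or below) and its WT-2 peak 829.52 (55.4%), and the peaks shared 179 bp. Neither of these peaks held GGAC. The other peaks were a pair in the 5′-UTR of WT-2 (413.33) and KO-2 (825.89) that shared 286 bp, a peak in the coding sequence of WT-1 (756.03) and a peak far down the 3′-UTR of WT-1 (441.64).

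The BH3-only genes had their peaks in the last exon. *Bcl2l11*, which encodes BIM, lies at chr2:128126038-128162547 on the plus strand and had a peak over the stop codon in every list. The scores were 76.33 and 189.53 in the WT lists (WT-1 first) and 407.77 and 173.99 in the KO lists (KO-1 first), with widths of 504, 550, 552 and 1236 bp in the same order. These scores ranked low, with 2.73%, 14.2%, 39.7% and 13.9% of the list at or below, so the peak was present in every mouse without being strong in any. It began at the 5′ edge of exon 4 in 3 of the lists. KO-2 alone had a second peak, 703 bp wide and near the 3′ end of the longest transcript (score 923.60).

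*Bbc3*, which encodes PUMA, a BH3-only protein induced by p53, lies at chr7:16308393-16318205 on the plus strand. It had 0 peaks in WT-2 and 1 in each other list, scored 671.92 (WT-1, 377 bp), 195.74 (KO-1, 419 bp) and 220.87 (KO-2, 429 bp). The midpoints lay 219 to 240 bases after the stop codon, and the 3 peaks shared 377 bp. WT-1 ranked it higher (58.9% of the list at or below) than KO-1 (19.2%) and KO-2 (18.1%). This stretch was the densest in GGAC of all, with 9 matches, 20.98 per kb, beside 4.33 per kb in the rest of the transcript. Of the sites with A, C or T next, 2 within the shared bases are shown as examples. A further GGAC stands in lower case in the first.
*Bbc3*, 3′-UTR, chr7:16317413-16317442, plus strand: tgatggagatacGGACTtggggggaccctg
*Bbc3*, 3′-UTR, chr7:16317463-16317492, plus strand: gggagggctgaaGGACTcatggtgactgag

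*Bmf*, whose product is held at the cytoskeleton until it is released to bind BCL2, lies at chr2:118528757-118549687 on the minus strand. It had 2 peaks in WT-2 and 3 in KO-1, and 0 in WT-1 and KO-2. All lay in the last exon. The peak nearest the stop codon scored 959.62 in WT-2 and 96.91 in KO-1, the next one 209.56 and 132.74, and the one farthest from it, in KO-1 alone, 290.49. The pattern followed neither genotype.

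*Bax*, which forms pores in the outer mitochondrial membrane, lies at chr7:45461697-45466898 on the minus strand and had no peak in any list. Its longest coding transcript has 867 bases. Of 2822 genes whose transcript has at most 1000 bases, 6.91% had a peak in any list, beside 35.6% of 19044 genes with a longer one. The *Bax* transcript holds 8 GGAC, or 9.23 per kb. Why it had no peak was not tested.

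All 3 of these IAP genes had a peak on the exon that holds the start codon, for *Birc3* in the WT lists alone. For *Xiap*, at chrX:42059679-42109656 on the plus strand, the peak was 998 bp (WT-1) and 1095 bp (WT-2) wide in the WT lists and 987 bp (KO-1) and 990 bp (KO-2) wide in the KO lists. It ended in every list at the same base, the 3′ edge of exon 1 of the longest coding transcript. Its score was at the ceiling of 3100 in WT-1 and KO-1. It was 3025.76 in KO-2, just under the tied peaks (80.2% of the list at or below), and 1312.99 in WT-2 (67.9%). In 2 other coding transcripts the exon is shorter (906 bases in place of 1545), and the peaks began 81 to 189 bases before it. WT-2 had a second peak over the stop codon (205.17). As in *Bcl2l1*, the peak present in all lists was below the ceiling and lowest in score rank in WT-2.

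*Birc2*, at chr9:7818227-7837064 on the minus strand, had a peak over the start codon in exon 2, which has 1875 bases. The peaks of the 4 lists were 865 to 1166 bp wide and shared 407 bp. The score was 692.14 (WT-1) and 195.46 (WT-2) in the WT lists, and 1612.83 (KO-1) and 76.38 (KO-2) in the KO lists. Its rank varied widely, with 59.8%, 14.8%, 73.3% and 2.62% of the list at or below. In each genotype it ranked higher in replicate 1 than in replicate 2. WT-1 had a second peak over the stop codon in exon 8 (885.51).

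*Birc3*, at chr9:7848699-7873186 on the minus strand, had the most peaks of the 10 genes, with 3 (WT-1) and 2 (WT-2) in the WT lists and again 3 (KO-1) and 2 (KO-2) in the KO lists. Its highest-scoring peak had 79.6% to 85.7% of the list at or below, below the ceiling in each, but it was not the same peak in each list. Exon 2, which holds the start codon, had a peak in WT-1 (2247.30, 945 bp, the whole exon) and WT-2 (1539.82, 600 bp) and none in either KO list. A peak on exon 7 was present in all 4 lists, with scores of 270.09 (WT-1) and 2413.40 (WT-2), and of 299.55 (KO-1) and 2907.37 (KO-2). The high scores on exon 7 were those of replicate 2 of each genotype (WT-2 and KO-2), and the low ones those of replicate 1. This peak ended in each list at the 3′ edge of the exon, which has 252 bases, and began 136 to 376 bases before its 5′ edge, in bases that are intron in every transcript of the annotation used.

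A further peak of *Birc3*, in every list but WT-2, lay outside the longest transcript. It ended exactly at the 3′ end of a shorter coding transcript, whose last exon, at chr9:7855815-7857438, has 1624 bases where exon 5 of the longest transcript has 49. KO-1 had another peak of 345 bp at the 5′ end of the same exon (99.60). The scores and widths of the first of these peaks were 602.39 and 418 bp (WT-1), 2549.21 and 390 bp (KO-1), and 212.57 and 390 bp (KO-2). In WT-2 no peak lay in that exon. The motif in the exon 2 peak and that in the peak at the end of the shorter transcript are shown, since the first belongs to the WT-only peaks and the second to an exon of the shorter transcript.
*Birc3*, coding sequence in exon 2, chr9:7860707-7860736, minus strand: ttctactacataGGACCtggagatagagtg
*Birc3*, last exon of the shorter transcript, chr9:7855922-7855951, minus strand: gttgtagcccctGGACTcacatggtcgagg

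**Figure D2:**
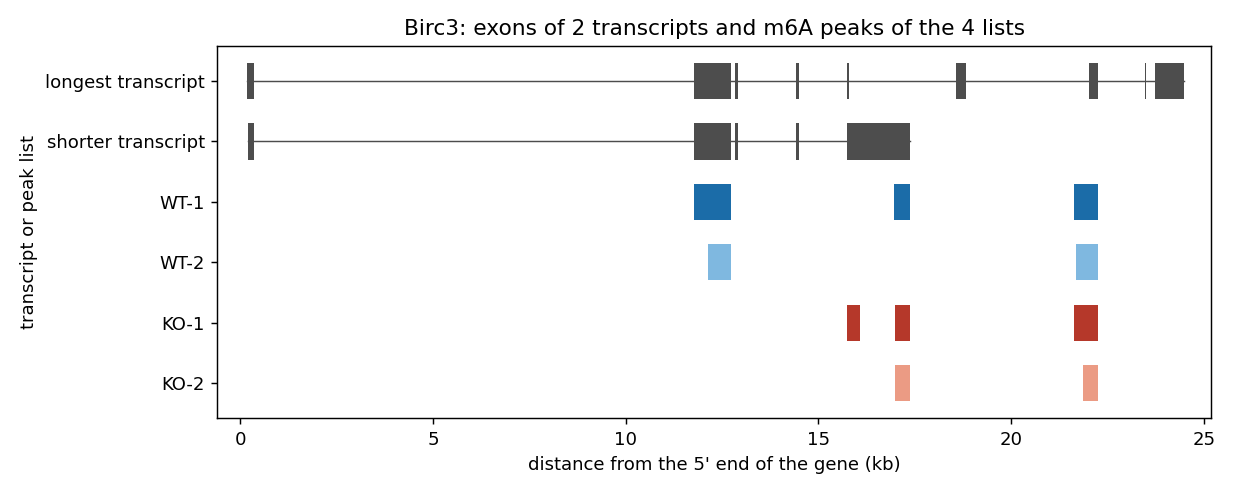
Exons (boxes) of the longest coding transcript and of the shorter one, and the *Birc3* peaks of each list, in kb from the 5′ end of the gene. Exon 2 has a peak in WT-1 and WT-2, the end of the last exon of the shorter transcript in every list but WT-2, and exon 7 of the longest, with intron before it, in all 4 lists.

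*Birc2* and *Birc3* are neighbours on chromosome 9 and alike in sequence, so reads could be placed on the wrong one. Over 1774 aligned bases of coding sequence they were 76.7% identical, and the longest identical stretch of their transcripts had 114 bases. That stretch lies in exon 5 of *Birc2* and exon 6 of *Birc3*, where 0 of the 4 lists had a peak. Shorter identical stretches in the exons with peaks were not located, and misplacement of reads was not tested. *Xiap* was 65.9% and 65.8% identical to *Birc2* and *Birc3*, with stretches of 14 and 12 bases at most.

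Between the genotypes, the number of these genes with a peak was 7 (WT-1) and 8 (WT-2) in the WT lists and 8 in either KO list. None of the 9 genes was WT-only, beside 3.97% of all genes with a peak, and none was KO-only (the reverse), beside 4.89%. Without KO replicate 2 *Bcl2* was WT-only, and *Bbc3* was KO-only without WT replicate 1 and *Mcl1* without WT replicate 2, so 1 list decided each of these. Peaks on the 10 genes numbered 13 in either WT list and 12 (KO-1) and 11 (KO-2) in the KO lists, the mean of the latter being 11.5 ± 0.707 (SD, n = 2). The genotypes did not overlap here. With peaks within 100 bp merged the difference of KO less WT was -1 in place of -1.5, and the genotypes were no longer apart. Nor were they apart when peaks were assigned by the longest coding transcript alone (-1.5). The KO lists were the longer in all, and the 10 genes held 0.211%, 0.208%, 0.188% and 0.165% of the peaks of the lists. The bases covered were 7734, 9983, 7606 and 9694 in the same order, a difference of -208.5 for KO less WT, which became 916 without WT replicate 2 and 835.5 without KO replicate 1. The same difference was -1784 with the upper 50% of peaks by score and -791.5 with an equal number of peaks per list. Of the genes taken singly, *Bcl2* differed as given above, and for the other 9 the WT and KO lists overlapped in the number of peaks (two-sided exact permutation test, p = 1 for each).

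**Figure D3:**
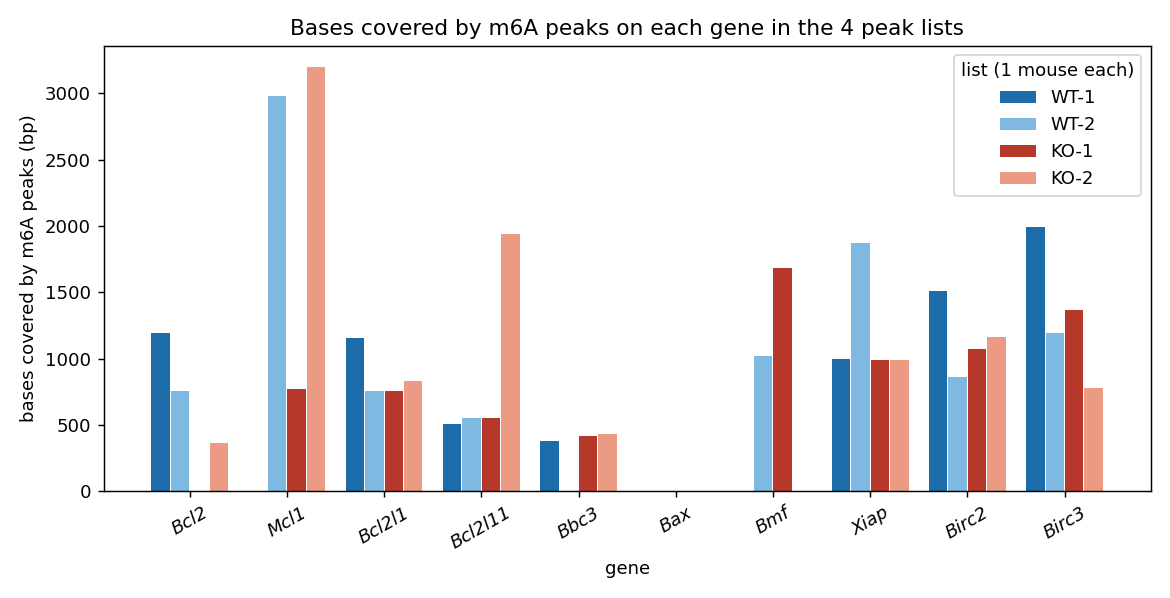
Bases of each gene covered by m6A peaks (bp) in the 4 lists, 1 mouse each, with no bar where a list has no peak. *Mcl1* ranges from 0 in WT-1 to 3198 in KO-2 and *Bmf* from 0 to 1685, with 1 mouse of each genotype at 0 for *Bmf*.

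Among the 22 regions, 2 were WT-only (beside 3.32% of 12350 regions in all), and these were the *Bcl2* 3′-UTR region and the *Birc3* exon 2 region described above. KO-only regions were 0 of 22, beside 6.19%. These shares of 22 regions were not tested. Without WT replicate 2, where a peak in 1 WT list was enough, 6 regions were WT-only, and leaving out any 1 list gave 1 or 2 KO-only regions. Of the 2 regions, that of *Birc3* was also present among the upper 50% of peaks by score, and that of *Bcl2* was not. The *Bcl2* region was also lost when a shared region had to overlap by 50% in both peaks.

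The midpoint of a peak was in the 3′-UTR for 50% of the peaks placed on these genes in either WT list, and for 55.6% (KO-1) and 40% (KO-2) in the KO lists. The KO lists lay on either side of the WT lists. Counted by base in place of midpoint, the difference of KO less WT went from -2.22 to 5.85 percentage points. It was -30.95 among the upper 50% of peaks by score, where the genotypes did not overlap, and 0 with an equal number of peaks per list. By region in place of peak, the midpoint was in the 3′-UTR for 61.1% of those placed here, beside 51.3% over all genes.

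By score, 26 of the 49 peaks were among the upper 50% of their list, and the median peak had 54.1% of its list at or below. Scores of 3100 or more were found for 7 peaks, on *Mcl1*, *Bcl2l1* and *Xiap*. An edge of the peak fell exactly on an exon edge in 30 of the 49 peaks. Over all peaks of a list, the start was on an exon edge in 24.6% (WT-2) to 30.6% (KO-2). The end was on one in 24.4% (WT-1 and WT-2) to 30.6% (KO-2), so such edges were common in the lists. The share of all peaks with either edge on an exon edge is not given. The widths ran from 345 to 2472 bp with a median of 591 bp.

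**Figure D4:**
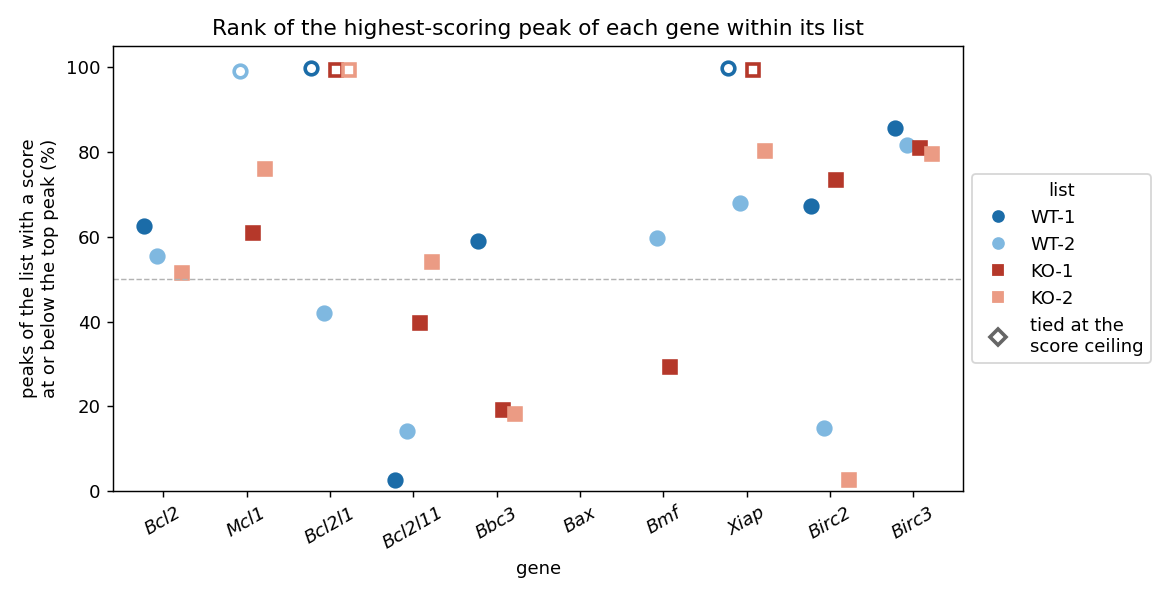
Share of peaks (%) of the same list that score at or below the highest-scoring peak of each gene, by list; the dashed line marks 50%. Open symbols are peaks at the score ceiling, which are tied with the upper 10.3% to 19.5% of their list. *Bcl2l1* is at the ceiling in 3 lists and at 42% in WT-2, *Birc3* lies between 79.6% and 85.7%, and *Birc2* runs from 2.62% to 73.3%.

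GGAC was denser in the peaks of the 10 genes than in the rest of the transcripts of the genes with a peak in that list. Peaks were counted over their whole width, bases outside the longest coding transcript included, and the rest over that transcript alone. GGAC occurred 5.04 (WT-1) and 3.81 (WT-2) times per kb in peaks of the WT lists and 5.13 (KO-1) and 4.54 (KO-2) times in those of the KO lists, where the rest had 3.0, 3.60, 3.39 and 3.26 per kb in the same order. The ratio was 1.68, 1.06, 1.51 and 1.39, with WT-2 the lowest and no split by genotype. Its mean of 1.41 stood beside 1.25 for all genes. For the wider motif of 5 bases (A, G or T, then A or G, then A, then C, then A, C or T) the mean was 1.22, beside 1.14. At least 1 GGAC was in 44 of the 49 peaks (89.8%), beside 88.1% of 24310 peaks on all genes, so the share was near that of any peak.

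By gene, 7 of the 9 were denser in GGAC inside the peaks of any list than outside. The exceptions were *Mcl1*, with 3.79 inside and 12.10 outside, where peaks leave little of the transcript uncovered, and *Birc3*, with 1.61 inside and 3.52 outside. The peaks held 70 of 148 GGAC (47.3%) in 40.1% of the bases. The same counts over all genes with a peak are not given. GGAC was denser in peaks over all genes too (mean ratio 1.25), so these counts are not read as particular to the 9 genes.

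**Figure D5:**
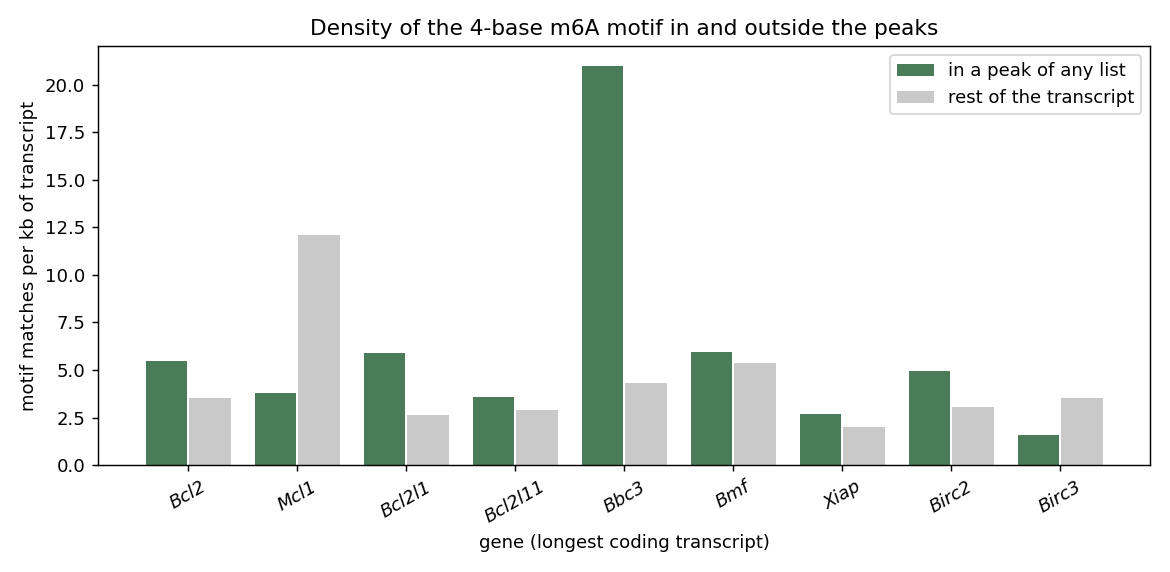
GGAC matches per kb of the longest coding transcript in bases covered by a peak of any list (green) and in the rest (grey), for the 9 genes with a peak. *Bbc3* stands out at 20.98 per kb inside peaks, and *Mcl1* and *Birc3* are the genes with fewer matches inside than outside.

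Around these genes, 66 other genes of apoptosis in 5 lists were looked up in the same way, and 38 (57.6%) had a peak, 17 of them in all 4 lists, beside 31.9% of all genes with a peak and 30.5% of those in all 4 lists. These lists too were chosen with earlier results known, and the shares were not tested. Of 18 other BCL2 family genes 7 had a peak and 0 had one in all 4 lists, and *Bak1*, the effector beside *Bax*, had none. Of 11 other IAP genes and IAP antagonists 8 had a peak and *Naip2*, *Naip5*, *Naip6* and *Birc6* had one in all 4 lists. The *Naip* genes are near copies of each other, so their peaks are uncertain. Of 12 genes of caspases and the apoptosome 4 had a peak, with *Casp8*, the initiator caspase of death receptors, in all 4 lists.

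Of 15 genes of death receptor signalling 14 had a peak, the highest share of the 5 lists. *Tnfrsf1b*, *Cflar*, *Ripk1*, *Traf1*, *Traf3*, *Cyld* and *Tnfaip3* had one in all 4 lists. Several of these act with cIAP1 and cIAP2 at the TNF receptors. Of 10 regulators of MCL1 and p53 and other mitochondrial genes 5 had a peak, all of them in all 4 lists, namely *Huwe1*, *Fbxw7* and *Usp9x*, which set the stability of MCL1, and *Mdm2* and *Trp53bp2*.

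By genotype, *Birc5*, which encodes survivin, had 1 peak in each WT list and 0 in the KO lists. *Diablo*, whose product antagonises IAP proteins, and *Fadd*, an adaptor of death receptors, had 1 peak in each KO list and 0 in the WT lists. That is 1 and 2 of 38 genes, beside the 3.97% and 4.89% of all genes given above.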

How the data were processed

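m6A peaks were compared in BMDMs of 2 WT and 2 KO mice. For each mouse an IP and an input library were made, 8 libraries in all, and the authors deposited 1 list of called peaks per mouse. The score values were made by the authors' peak caller for each peak before the lists were deposited, have no unit and served here only to rank peaks within a list. Per the labels, the processing notes of the submitters name cutadapt 1.9.3, HISAT2 2.0.4 and mm10 (GRCm38). The peak caller and its settings are not given in the sources used here. Replicates were not pooled, and without read counts the depth, and so the precision it gives, is unknown.

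Peaks were assigned to the protein-coding gene of GENCODE M21 with the largest exon overlap on the same strand (at least 1 bp). They were placed on the transcript with the longest coding sequence, and merged into regions by an overlap of at least 1 bp. Genes or regions were called by genotype when listed for each mouse of one and no mouse of the other. For single genes, the two-sided exact permutation test had 6 labellings and a smallest p of 0.33, so no difference between the genotypes could pass 0.05. WT mice were Cre-negative littermates of KO mice, but which mice shared a litter is not given, and p-values measure the spread between these lists. Values adjusted over the 10 genes alone, and tests of sums over them, are not given.

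All 10 genes are named. Of the lists of other apoptosis genes, those with a peak in all 4 lists or called by genotype are named. The marker genes and *Bak1* do not follow from this rule; their values were known when they were named. The result for 1 marker gene is not reported here. The genes and lists were chosen with earlier results of these data known. As alternatives, results were computed with the upper 50% of peaks by score, 6159 top peaks per list, each list left out in turn, a replicate block, another gene assignment, a reciprocal overlap of 50%, peaks cut to 300 bp, peaks within 100 bp merged, every exonic base in place of the midpoint, another motif and the central 200 bp. On simulated lists, presence planted in 4942 genes was recovered for 100% of them. It was planted only where 1 gene model overlapped, so this checks the code and not the assignment where genes overlap. Sequences were read from the RefSeq genome of GRCm38. Python 3.11.15, numpy 2.4.6, scipy 1.17.1, Biopython 1.88 and matplotlib 3.10.9 were used.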

Additional observations from a re-analysis of the deposited data

How the results depend on the processing

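With 2 lists per genotype and no read counts, counts by genotype depended on single lists, and a missing peak may be a peak below the caller's limit. With the upper 50% of peaks by score, and with a reciprocal overlap of 50%, 1 region was WT-only in place of 2. In the share of peaks in the 3′-UTR, KO less WT was -2.22 percentage points by midpoint and 5.85 by exonic base. It was -30.95 with the upper 50% of peaks, where the genotypes did not overlap, and 0 with an equal number of peaks per list. The difference in bases covered was -208.5, -1784 with the upper 50% of peaks and -791.5 with equal numbers. For single genes the difference in the number of peaks changed sign with the upper 50% of peaks, to 0.5 for *Bcl2l1* and -0.5 for *Bbc3* and *Bmf*. That of *Birc3* moved from 0 to -1, where the genotypes did not overlap (exact permutation test, p = 0.33, the smallest possible). That of *Bcl2* went from -2 to -0.5, where the genotypes overlapped (exact permutation test, p = 1). For the 10 genes, leaving out each list gave differences from -2.5 to 2. That of *Mcl1* ran from -0.5 (without WT replicate 1) to 1.5 and that of *Bmf* from -1 (without KO replicate 1) to 2, with -0.5 without WT replicate 1.

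Leaving out each list in turn gave 2 to 6 WT-only regions (6 without WT replicate 2) and 0 to 1 WT-only genes (*Bcl2*, without KO replicate 2). It gave 1 to 2 KO-only regions and 0 to 1 KO-only genes, namely *Bbc3* without WT replicate 1 and *Mcl1* without WT replicate 2. Fewer lists then had to meet the criterion. The difference in bases covered ran from -1333 to 916, being 916 without WT replicate 2 and 835.5 without KO replicate 1, and that in the 3′-UTR share from -10 to 5.56, the latter without KO replicate 2. The ratio of GGAC density ran from 1.32 to 1.53.

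The controls were littermates, but neither the labels nor the methods say that equal replicate numbers mark a shared litter or batch. The correlation of the replicate differences of WT and KO over 12350 regions was 0.00733. Lists of equal number shared 0.383 (WT-1 and KO-1) and 0.359 (WT-2 and KO-2) of regions. The other pairs shared 0.373 (WT-1 and KO-2) and 0.362 (WT-2 and KO-1). The broad *Mcl1* peak, the *Bcl2* 5′-UTR pair and the ranks of *Birc2* and of *Birc3* exon 7 went by number. Others, such as the *Bmf* peaks, did not, and a part of the replicate number was not tested. With the replicate block, where the criterion had to hold in 1 pair of lists and be reversed in none, 7 regions and 1 gene (*Bcl2*) were WT-only and 6 regions and 2 genes (*Bbc3* and *Mcl1*) KO-only. The smallest p with the block is 0.5. An equal number of peaks per list moved the difference in genes with a peak from 0.5 to 0. Another gene assignment moved the difference in peaks from 0 to -0.5 for *Birc3* and from -0.5 to 0 for *Bcl2l1*. Neither changed which of the 10 genes and 22 regions were WT-only or KO-only.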
